A study of Mus musculus with 9 samples.

Results

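The lectin-like receptor genes of the mouse natural killer gene complex were examined in activated cultures of CD4-enriched splenic T cells with and without CD69. They were taken as the probe sets whose single platform symbol begins with Klra, Klrb, Klrc, Klrd, Klre, Klrg, Klrh, Klri, Klrk or Clec2, or is Clec1a, Clec1b, Clec7a, Clec9a, Clec12a, Clec12b or Olr1. This gave 38 genes of 19938 measured, each with 1 probe set. Cd69, which belongs to the same complex, was left out of the 38. In RefSeq gene order 35 of them lie in a single block of 92 genes on chromosome 6, with Cd69 between Clec2d and Clec2m. Klrg1, Klrg2 and Clec2l lie elsewhere on the same chromosome. Another 4 probe sets name several genes at once, at least 1 of which meets the rule, and were not used.

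The complex encodes C-type lectin-like membrane proteins of natural killer cells, activated T cells and myeloid cells. Ly49 receptors (Klra) and the CD94-NKG2 receptors (Klrd1 with Klrc1, Klrc2 or Klrc3) read class I molecules, and NKG2D (Klrk1) reads stress-induced relatives of class I. NKR-P1 receptors (Klrb1 genes) instead bind Clr proteins, which are lectins encoded by the interspersed Clec2 genes. The dectin-1 cluster (Clec1a, Clec1b, Clec7a, Clec9a, Clec12a, Clec12b, Olr1) codes mainly for receptors of myeloid cells, platelets and endothelium. Inhibitory members carry a tyrosine motif that recruits phosphatases. Many activating receptors of natural killer cells signal through the adaptors DAP12 (Tyrobp), DAP10 (Hcst) or the Fc receptor gamma chain (Fcer1g).

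Each of 3 groups had 3 arrays. All samples were cultures of CD4-enriched T cells from the spleen of C57BL/6J mice. The cultures were kept for 72 h on beads coated with antibodies to CD3 and CD28. The wild-type group received no further antibody, and the CD69-/- group came from mice with the CD69-/- genotype. The CD69-activated group was wild-type cells given an antibody to CD69 after 24 h of culture and, after 48 h, a second antibody that cross-links the first. The labels describe no culture with control antibodies, give no ages, and call the replicates biological without saying that each was a separate animal, so the p-values reflect only how far these samples spread.

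Values are log2 RMA levels, in which a difference of 1 is a 2-fold change. A gene was called where the adjusted p of limma over all 19938 genes was under 0.05. Levels of different probe sets are not comparable, so no gene is ranked above another by its level.

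The group means of Cd4 were 11.98 (wild type), 12.35 (CD69-/-) and 12.06 (CD69-activated), and none of 10 T cell genes, most of them shared with CD8 T cells, was among the dimmest 25% of genes. None of 7 B cell markers was among them either. The mean log2 level of these B cell markers was 11.96 to 12.01 in wild type, 11.44 to 11.52 in CD69-/- and 11.86 to 11.93 in CD69-activated arrays. RNA of B cell and CD8 genes was thus present beside that of Cd4, and no value can be assigned to CD4 T cells alone. The mean log2 level of Cd8a and Cd8b1 was 11.81 to 11.84 in wild type, 12.33 to 12.39 in CD69-/- and 11.32 to 11.52 in CD69-activated arrays. The group means of Cd69 were 12.17 (wild type), 9.59 (CD69-/-) and 11.79 (CD69-activated); whether its probe set lies in the deleted part was not examined. The CD69-/- arrays alone had Y-linked Eif2s3y (mean 9.78 against 4.33 in wild type) and little Xist (6.01 against 12.59). Genotype and sex therefore cannot be told apart in any comparison with CD69-/-. Of the 38 genes 35 lie in the same chromosome 6 block as Cd69. Whether the CD69-/- mice differ from wild type in sequence there, beyond Cd69 itself, was not examined. In these bulk samples fewer cells of a type and less RNA per cell cannot be told apart either.

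In CD69-/- cells the NKR-P1 and Clec2 pair Klrb1f and Clec2i, the inhibitory receptor gene Klrb1b and the dectin-1 gene Clec7a were lower than in wild type, while the NKG2D gene Klrk1, the CD94 gene Klrd1 and Klrg1 were higher. Of the 38 genes 13 fell and 6 rose, and 19 were not called. Calls in this comparison covered 15.1% of all genes, 6.78% lower and 8.36% higher (5.37% and 12.8% with arrays centred on their medians). The median log2 fold change was -0.079 for the 38 genes and -0.0091 for all genes. Of the 38, 8 changed by at least 1.5-fold, which 1.15% of all genes did. These 8 were Klrb1b, Clec7a, Clec2i, Klri2, Klrb1f and Klra6, which fell, and Klra5 and Klrc3, which rose.

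After CD69 activation the inhibitory NKG2A gene Klrc1, Klrk1 and the Ly49 gene Klra6 were lower than in wild type, and Clec2i was higher. Of the 38 genes 10 fell, 1 rose and 27 were not called. Over all genes 23.8% were called, 13.7% lower and 10.1% higher. The share called among the 38 was 28.9%, near that of all genes, with 26.3% lower and 2.63% higher. The median log2 fold change was -0.046 for the 38 genes and 0.017 for all genes, and 3 of the 38 changed by at least 1.5-fold, against 1.58% of all genes. Both comparisons use the same wild-type arrays, so their values are given side by side and not as independent results.

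**Figure D1:**
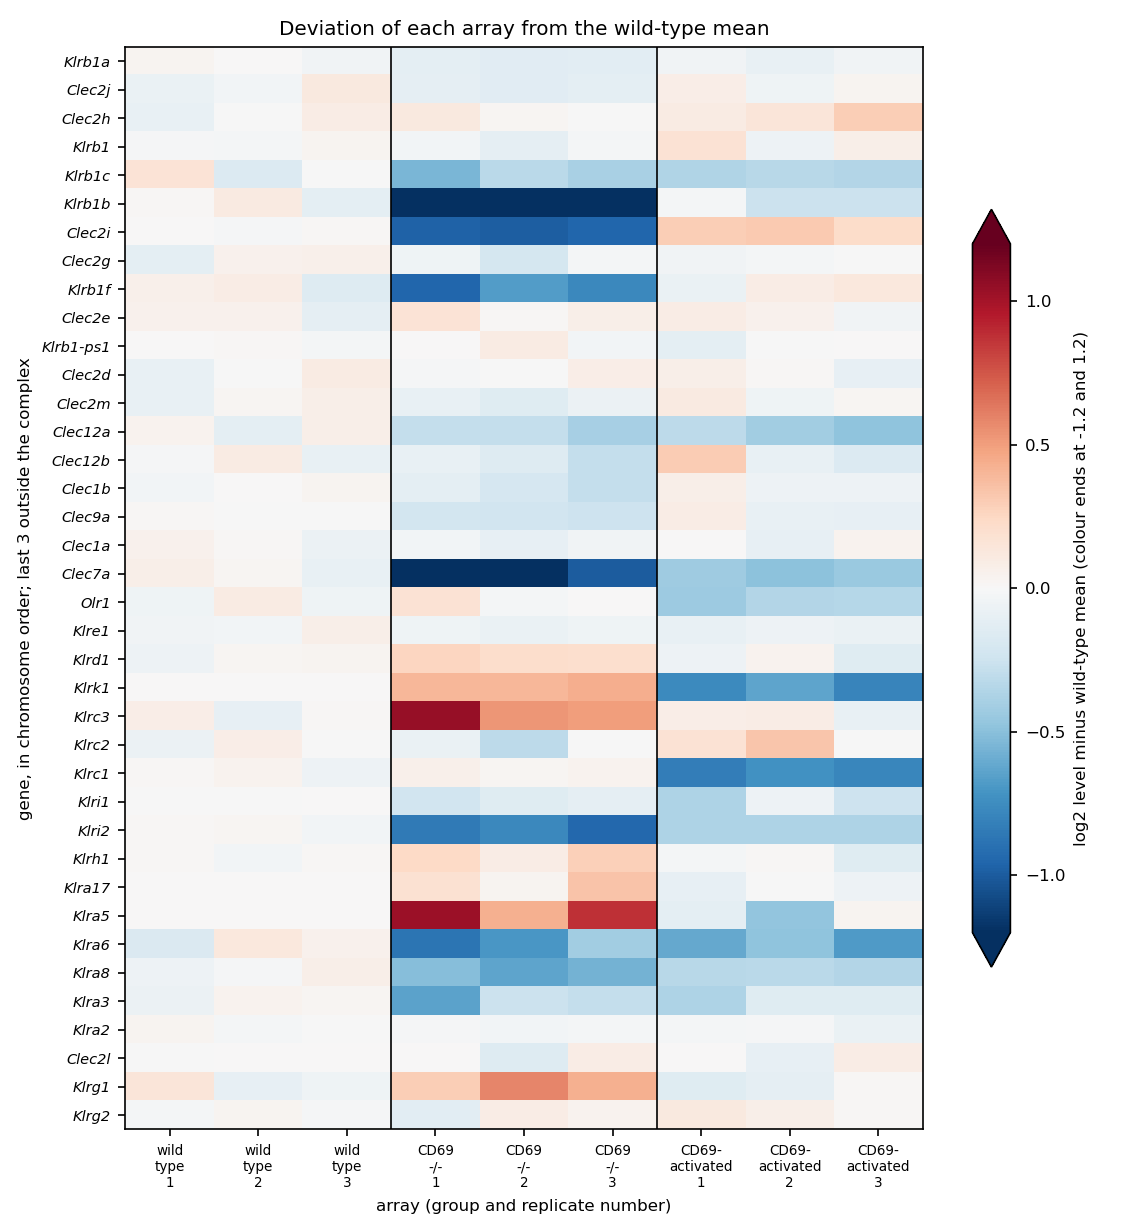
The log2 level of each of the 38 genes in each array minus that gene's wild-type mean, in chromosome order, with the 3 genes outside the complex in the last rows. Blue is lower and red is higher than the wild-type mean. Klrb1b, Clec2i, Klrb1f and Clec7a are blue in all CD69-/- arrays, and Klrk1 and Klrc1 are blue in all CD69-activated arrays.

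The 250 bases before the transcription start are shown for the 3 genes with the largest falls in CD69-/- cells and for Klrk1, whose calls against wild type had opposite signs. They are RefSeq sequences of build GRCm38.p6, written 5′ to 3′ on the strand of the gene. Capitals mark matches, on either strand, to the AP-1 motif TGANTCA, the RUNX motif TGTGGT, the NFAT motif GGAAAA, the motif GAGGAA of PU.1 and other ETS factors, and the TATA box TATAAA. Klrb1b lies on the minus strand at chr6:128826316-128826565, Clec2i on the plus strand at chr6:128887337-128887586, Clec7a on the minus strand at chr6:129472780-129473029 and Klrk1 on the minus strand at chr6:129623865-129624114.
Klrb1b: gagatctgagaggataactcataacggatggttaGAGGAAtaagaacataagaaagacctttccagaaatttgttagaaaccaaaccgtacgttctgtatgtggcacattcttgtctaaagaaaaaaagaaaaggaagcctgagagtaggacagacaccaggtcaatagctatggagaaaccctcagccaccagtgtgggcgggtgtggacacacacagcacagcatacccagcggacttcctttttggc
Clec2i: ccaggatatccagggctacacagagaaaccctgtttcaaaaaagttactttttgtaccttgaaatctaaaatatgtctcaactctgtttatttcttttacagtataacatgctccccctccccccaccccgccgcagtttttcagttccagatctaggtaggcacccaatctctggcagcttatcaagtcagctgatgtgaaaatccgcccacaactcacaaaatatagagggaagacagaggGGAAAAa
Clec7a: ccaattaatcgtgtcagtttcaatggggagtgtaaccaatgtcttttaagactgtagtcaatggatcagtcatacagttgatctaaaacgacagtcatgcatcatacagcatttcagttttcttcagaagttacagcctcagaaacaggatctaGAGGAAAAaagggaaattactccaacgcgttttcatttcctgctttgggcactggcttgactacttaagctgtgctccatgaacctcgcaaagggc
Klrk1: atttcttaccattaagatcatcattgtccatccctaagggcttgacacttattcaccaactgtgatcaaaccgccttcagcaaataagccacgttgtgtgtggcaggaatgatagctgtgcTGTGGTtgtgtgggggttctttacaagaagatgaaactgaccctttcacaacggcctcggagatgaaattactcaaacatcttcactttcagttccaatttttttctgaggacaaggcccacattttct

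The Klrb1b window held 1 GAGGAA match and the Clec2i window 1 GGAAAA match. In Clec7a these motifs overlapped in a single stretch, which counts for both. The match in Klrk1 was TGTGGT. Windows of this length were found for 32 of the 38 genes. GAGGAA was in 16 of those 32 windows and in 23.1% of the windows of 27025 genes, and TGTGGT in 25.0% and 14.2%. GGAAAA was in 31.2% and 20.6%, TATAAA in 31.2% and 13.0%, and TGANTCA in 15.6% and 6.9%. A match is a run of letters and not a measured site, and several windows belong to duplicated genes with similar sequence.

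Klrb1b had the largest difference of the 38 genes in CD69-/- cells. It encodes NKR-P1B, an inhibitory receptor for Clr-b. Klrb1b read 8.86, 8.95 and 8.72 in the wild-type arrays, 6.71, 6.76 and 6.82 in the CD69-/- arrays, and 8.82, 8.58 and 8.58 in the CD69-activated arrays. The CD69-/- arrays lay below every other array, and the remaining groups overlapped. Klrb1b was 4.23-fold lower in CD69-/- than in wild type (adjusted p = 4.15e-08; log2 fold change -2.08 with an SE of 0.073, 3 arrays in each group). With activation its difference from wild type was -0.18 (95% interval -0.34 to -0.02, adjusted p = 0.0996), which passed at 0.0169 without CD69-activated replicate 1 (difference -0.26).

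Klrb1f encodes NKR-P1F, a receptor for the Clr-g protein that Clec2i encodes. Klrb1f read 8.75, 8.77 and 8.53 in the wild-type arrays, 7.73, 8.01 and 7.90 in the CD69-/- arrays, and 8.60, 8.76 and 8.80 in the CD69-activated arrays. Again the CD69-/- arrays stood apart below and the others overlapped. It fell 1.74-fold in CD69-/- cells (log2 fold change -0.80 ± 0.084 SE, adjusted p = 6.89e-05). The difference after activation was 0.04 (95% interval -0.14 to 0.23).

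Clec2i, the gene of that ligand, read 11.18, 11.16 and 11.19 in the wild-type arrays, 10.21, 10.19 and 10.22 in the CD69-/- arrays, and 11.47, 11.49 and 11.40 in the CD69-activated arrays. The 3 groups were fully separated, with CD69-/- lowest and CD69-activated highest. Clec2i fell 1.96-fold without CD69 (log2 fold change -0.97 ± 0.036 SE, adjusted p = 6.78e-08). It rose by 0.28 with activation (SE 0.036, adjusted p = 0.000266), the only rise called among the 38 genes in that comparison.

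Klrb1c, whose product is the NK1.1 antigen of B6 natural killer cells, read 5.66, 5.33 and 5.49 in the wild-type arrays, 4.94, 5.17 and 5.11 in the CD69-/- arrays, and 5.14, 5.16 and 5.15 in the CD69-activated arrays. Both altered groups lay below all wild-type arrays and overlapped each other. The falls were 0.42 log2 units in CD69-/- (adjusted p = 0.00342) and 0.35 in CD69-activated cells (adjusted p = 0.00773). Klrb1a, which encodes NKR-P1A, read 4.95, 4.92 and 4.87 in the wild-type arrays, 4.80, 4.78 and 4.79 in the CD69-/- arrays, and 4.87, 4.82 and 4.87 in the CD69-activated arrays. Its CD69-/- arrays were the lowest, and it fell by 0.12 in CD69-/- (adjusted p = 0.037). That small call was lost without wild-type replicate 1 or 2 or without CD69-/- replicate 1, 2 or 3 (adjusted p = 0.122, 0.104, 0.0825, 0.104 and 0.0870, with differences from -0.13 to -0.11), and with arrays centred on their medians (-0.09, adjusted p = 0.0919).

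Clec2d encodes Clr-b, the ligand of NKR-P1B, and is the closest measured lectin gene to Cd69 on the NKR-P1 side. It read 11.23, 11.32 and 11.42 in the wild-type arrays, 11.30, 11.32 and 11.40 in the CD69-/- arrays, and 11.39, 11.33 and 11.22 in the CD69-activated arrays, so all groups overlapped. The difference from wild type was 0.02 in CD69-/- (95% interval -0.11 to 0.15) and -0.01 after activation (95% interval -0.13 to 0.12). Clec2m, the nearest measured gene on the other side, was at -0.10 (95% interval -0.22 to 0.01) and 0.03 (-0.09 to 0.14).

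The remaining NKR-P1 and Clec2 genes were called in neither comparison with wild type. They were Klrb1, the pseudogene Klrb1-ps1, Clec2e, Clec2g, Clec2h, Clec2j and Clec2l. Clec2h reached 0.18 after activation (95% interval 0.04 to 0.32, adjusted p = 0.0574). It was called without wild-type replicate 3 (0.23, adjusted p = 0.0368) or CD69-activated replicate 1 (0.22, adjusted p = 0.0388), and without the dimmest 25% of genes (0.18, adjusted p = 0.0443). In all, 5 of the 14 genes of this group fell in CD69-/- and 9 were not called, and 1 fell and 1 rose after activation. The share called was 35.7% in CD69-/-, against 15.1% of all genes. After activation it was 14.3%, below the 23.8% of all genes.

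**Figure D2:**
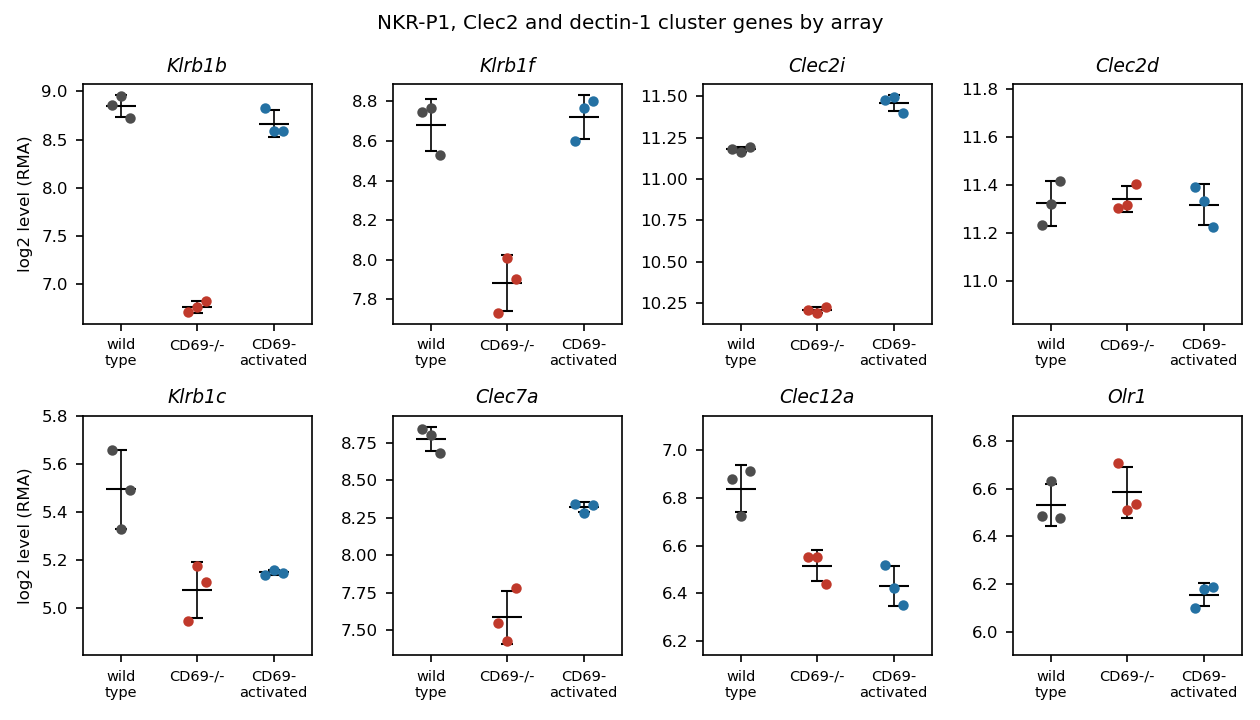
Log2 RMA levels of 8 NKR-P1, Clec2 and dectin-1 cluster genes in each array, with the mean and SD (n = 3 arrays per group) as a bar and whiskers. Each panel has its own vertical range of at least 1 log2 unit, so panels compare groups and not genes. Klrb1b, Klrb1f, Clec2i and Clec7a are lowest in CD69-/-, Clec2d overlaps in all groups and Olr1 is lowest in CD69-activated arrays.

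Of the 7 dectin-1 cluster genes 4 fell in CD69-/- cells and 3 fell after activation, the others being uncalled. These are 57.1% and 42.9% of the cluster, where 6.78% and 13.7% of all genes fell. Clec7a encodes dectin-1, the receptor for fungal beta-glucan. It was at 8.84, 8.80 and 8.68 in the wild-type arrays, 7.55, 7.43 and 7.78 in the CD69-/- arrays, and 8.34, 8.28 and 8.33 in the CD69-activated arrays. All groups were separated, with CD69-/- lowest and wild type highest. The fall was 2.28-fold in CD69-/- (log2 fold change -1.19 ± 0.076 SE, adjusted p = 2.75e-06) and 1.37-fold after activation (-0.45 ± 0.076 SE, adjusted p = 0.00143).

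Clec12a encodes an inhibitory receptor of myeloid cells. It was at 6.88, 6.72 and 6.91 in the wild-type arrays, 6.55, 6.55 and 6.44 in the CD69-/- arrays, and 6.52, 6.42 and 6.35 in the CD69-activated arrays. Both altered groups lay below wild type and overlapped each other. The falls were 0.32 (adjusted p = 0.00353) and 0.41 log2 units (adjusted p = 0.000606).

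Olr1, which encodes the oxidised LDL receptor LOX-1, had values of 6.48, 6.63 and 6.48 in the wild-type arrays, 6.71, 6.51 and 6.54 in the CD69-/- arrays, and 6.10, 6.18 and 6.19 in the CD69-activated arrays. Here wild type and CD69-/- overlapped and the activated arrays were lower than both. Olr1 fell by 0.37 after activation (SE 0.060, adjusted p = 0.00106), with a difference of 0.05 in CD69-/- (95% interval -0.08 to 0.19).

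Smaller falls in CD69-/- cells were those of Clec9a, a receptor of cross-presenting dendritic cells for damaged cells, and of Clec1b, the podoplanin receptor of platelets. Clec9a was at 5.10, 5.09 and 5.09 in the wild-type arrays, 4.88, 4.87 and 4.84 in the CD69-/- arrays, and 5.18, 5.003 and 4.99 in the CD69-activated arrays (fall in CD69-/- 0.23, adjusted p = 0.00802). Clec1b was at 5.30, 5.34 and 5.36, then 5.22, 5.13 and 5.05, then 5.40, 5.27 and 5.27 in the same order (fall 0.20, adjusted p = 0.024). For both genes the CD69-/- arrays were the lowest. The Clec1b call was lost without wild-type replicate 2 (-0.20, adjusted p = 0.0747) or 3 (-0.18, 0.0911) and without CD69-/- replicate 2 (-0.20, 0.0678) or 3 (-0.16, 0.0949). Clec1a and the inhibitory receptor gene Clec12b were called in neither comparison.

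Monocyte and macrophage markers moved with these falls in CD69-/-. Their mean log2 level over 11 genes was 7.95 to 7.96 in wild type, 7.36 to 7.44 in CD69-/- and 8.12 to 8.16 in CD69-activated arrays. In CD69-/- 8 of the 11 fell and 3 were not called, led by Adgre1 at -1.86 and Itgam at -0.88. After activation 4 rose and 1 fell, with Adgre1 at 0.85 and Cd14 at 0.46, while Clec7a, Clec12a and Olr1 fell. Of 9 dendritic cell markers 3 fell in CD69-/-, and 2 fell and 1 rose after activation, with Flt3 at -0.39 and -0.78. Of 8 neutrophil markers 1 fell in CD69-/- and 7 were not called, and 1 rose after activation, in each case Mmp8 (-1.23 and 1.35). The 5 platelet markers measured had 3 lower in each comparison, with Pf4 at -0.81 and -0.62. Of 6 endothelial markers 2 fell in CD69-/- and 4 were not called, and 1 rose and 5 were not called after activation. Over all genes 15.1% were called in CD69-/- and 23.8% after activation. The part of all these cell types in the falls of the dectin-1 cluster was not tested.

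Of the 5 CD94-NKG2 and NKG2D genes, Klrd1, Klrk1 and Klrc3 rose in CD69-/- and Klrc1 and Klrc2 were not called. After activation Klrc1 and Klrk1 fell. Calls thus covered 60% and 40% of these genes, against 15.1% and 23.8% of all genes. Klrk1 encodes NKG2D, an activating receptor of natural killer and cytotoxic T cells. It was at 8.25 in each wild-type array, at 8.64, 8.64 and 8.68 in CD69-/- and at 7.48, 7.61 and 7.46 in CD69-activated arrays. The groups were separated with CD69-/- highest.

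Klrk1 rose 1.33-fold in CD69-/- (log2 difference 0.41 ± 0.043 SE, adjusted p = 7.11e-05) and fell 1.66-fold after activation (-0.73 ± 0.043 SE, adjusted p = 1.18e-06). Its 3 wild-type values were equal to within 1e-06 log2 units, as were those of Klra5 and Klra17 in wild type and of Klri2 in CD69-activated arrays. Such a group occurred for 4 of the 38 genes and for 5.20% of all genes. The spread between these arrays is then not measured by the gene itself, and the SE rests on the other groups and on limma's prior.

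Klrc1 encodes NKG2A, the inhibitory partner of CD94. It read 9.23, 9.25 and 9.15 in the wild-type arrays, 9.27, 9.23 and 9.25 in the CD69-/- arrays, and 8.38, 8.48 and 8.42 in the CD69-activated arrays. Only the activated arrays stood apart. The fall of 1.72-fold (log2 fold change -0.78 ± 0.041 SE, adjusted p = 4.16e-07) was the largest among the 38 genes after activation. The difference in CD69-/- was 0.04 (95% interval -0.05 to 0.13).

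Klrd1, the gene of CD94, was at 10.59, 10.67 and 10.69 in the wild-type arrays, 10.91, 10.86 and 10.85 in the CD69-/- arrays, and 10.59, 10.69 and 10.50 in the CD69-activated arrays. The CD69-/- arrays were above the rest, which overlapped. Klrd1 rose by 0.23 in CD69-/- (SE 0.051, adjusted p = 0.0114), a call lost without wild-type replicate 1 (0.20, adjusted p = 0.0501) or CD69-/- replicate 1 (0.21, adjusted p = 0.0526). After activation Klrd1 was at -0.06 (95% interval -0.17 to 0.06).

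Klrc3, which encodes NKG2E, was at 4.95, 4.78 and 4.88 in the wild-type arrays, 5.92, 5.40 and 5.38 in the CD69-/- arrays, and 4.95, 4.96 and 4.78 in the CD69-activated arrays. The 3 CD69-/- arrays were higher, and replicate 1 was the highest of them. Klrc3 rose 1.62-fold (0.69 ± 0.12 SE, adjusted p = 0.00253). Klrc2, which encodes NKG2C, was at -0.13 in CD69-/- (95% interval -0.33 to 0.07) and at 0.17 after activation (-0.03 to 0.37).

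The CD8 genes moved in the same direction as Klrk1. Cd8a was at 0.61 and Cd8b1 at 0.43 in CD69-/-, and at -0.54 and -0.25 after activation, and all 4 differences were called. Of 12 natural killer cell markers outside the 38 genes, 4 rose and 4 fell in CD69-/-, and 4 fell and 8 were not called after activation. Those calls make up 66.7% and 33.3% of the list, against 15.1% and 23.8% of all genes. The mean level of the 12 was 8.01 to 8.07 in wild type, 8.06 to 8.09 in CD69-/- and 7.63 to 7.70 in CD69-activated arrays. Their differences ran from -0.64 to 0.53 in CD69-/- and from -1.63 to 0.10 after activation. The median difference after activation was -0.06, and the 4 falls called were all at least 1.5-fold. Ncr1, the gene of the natural killer receptor NKp46, was at -0.50 and -0.92, and the perforin gene Prf1 at 0.53 and -0.80. The part of these cells in the values of Klrk1, Klrd1 and Klrc1 was not tested.

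Of the 4 Klre, Klri and Klrh genes, Klri2 changed most. Its product pairs with that of Klre1 to form an activating receptor, while the product of Klri1 forms an inhibitory receptor with the same partner. Klri2 was at 5.53, 5.55 and 5.48 in the wild-type arrays, 4.67, 4.75 and 4.58 in the CD69-/- arrays, and 5.15 in each CD69-activated array. All groups were separated, with CD69-/- lowest. The fall was 1.81-fold in CD69-/- (log2 fold change -0.86 ± 0.044 SE, adjusted p = 7.85e-07) and 1.29-fold after activation (-0.37, adjusted p = 0.000154).

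Klri1 read 6.30, 6.31 and 6.32 in the wild-type arrays, 6.08, 6.16 and 6.20 in the CD69-/- arrays, and 5.94, 6.25 and 6.06 in the CD69-activated arrays. Wild type was the highest group, and the others overlapped. Klri1 was called after activation (-0.23, adjusted p = 0.0311) but not without wild-type replicate 1 (-0.23, 0.0762), 2 (-0.23, 0.0825) or 3 (-0.22, 0.0818) or CD69-activated replicate 1 (-0.15, 0.0970) or 3 (-0.21, 0.0810), nor with the 6 arrays of the comparison alone (-0.23, 0.0679). In CD69-/- it was at -0.16 (adjusted p = 0.151) and was called without CD69-activated replicate 2 (-0.16, 0.0396), which adds only to the shared spread, and with 6 arrays alone (-0.16, 0.0273).

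Klrh1 was at 4.28, 4.23 and 4.28 in the wild-type arrays, 4.50, 4.35 and 4.55 in the CD69-/- arrays, and 4.24, 4.28 and 4.11 in the CD69-activated arrays. It rose by 0.20 in CD69-/- (adjusted p = 0.0377). Without wild-type replicate 1, 2 or 3 the adjusted p was 0.0777, 0.124 or 0.0884, and without CD69-/- replicate 1 or 3 it was 0.125 or 0.140, with differences from 0.16 to 0.21. Klre1 was called in neither comparison.

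Of the 6 Ly49 genes measured alone, 3 fell and 1 rose in CD69-/-, and 2 fell and 4 were not called after activation. That is 66.7% and 33.3% called, against 15.1% and 23.8% of all genes. Ly49 genes are similar in sequence, so a value may hold signal from another member. Klra6, which encodes Ly49F, read 7.44, 7.74 and 7.66 in the wild-type arrays, 6.74, 6.91 and 7.20 in the CD69-/- arrays, and 6.995, 7.13 and 6.93 in the CD69-activated arrays. Both altered groups lay below wild type and overlapped. It fell 1.58-fold in CD69-/- (log2 fold change -0.66 ± 0.11 SE, adjusted p = 0.0015) and 1.51-fold after activation (-0.59 ± 0.11 SE, adjusted p = 0.00244).

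Klra8 encodes Ly49H, the activating receptor for a cytomegalovirus protein. It was at 5.52, 5.57 and 5.66 in the wild-type arrays, 5.07, 4.95 and 5.02 in the CD69-/- arrays, and 5.25, 5.26 and 5.23 in the CD69-activated arrays. The groups were separated with CD69-/- lowest. It fell 1.49-fold (log2 fold change -0.57 ± 0.045 SE, adjusted p = 8.58e-06) and 1.26-fold (-0.34, adjusted p = 0.000305).

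Klra3, the gene of the inhibitory receptor Ly49C, was at 7.42, 7.54 and 7.51 in the wild-type arrays, 6.85, 7.23 and 7.21 in the CD69-/- arrays, and 7.12, 7.35 and 7.34 in the CD69-activated arrays. Wild type lay above both other groups, which overlapped. The fall of 0.39 in CD69-/- (SE 0.096, adjusted p = 0.0179) was not called without wild-type replicate 2 (-0.37, adjusted p = 0.0695) or 3 (-0.38, 0.0689). After activation Klra3 was at -0.22 (adjusted p = 0.127), and passed without CD69-/- replicate 1 (-0.22, 0.0342), which is the array farthest from its group.

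Klra5, the gene of Ly49E, went the other way. It was at 4.81 in each wild-type array, at 5.83, 5.23 and 5.69 in CD69-/- and at 4.69, 4.33 and 4.84 in CD69-activated arrays. The CD69-/- arrays were all higher, and the other groups overlapped. Klra5 rose 1.71-fold (log2 difference 0.78 ± 0.15 SE, adjusted p = 0.00385). Klra17, the gene of Ly49Q, was at 0.19 in CD69-/- (95% interval 0.04 to 0.33, adjusted p = 0.0851). It was called without CD69-/- replicate 2 (0.27, adjusted p = 0.00956) and with arrays centred on their medians (0.22, adjusted p = 0.0314). Klra2, which encodes Ly49B, was called in neither comparison.

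Klrg1 encodes an inhibitory receptor for cadherins that marks terminal effector cells. It was at 7.23, 6.99 and 7.04 in the wild-type arrays, 7.38, 7.68 and 7.52 in the CD69-/- arrays, and 6.94, 6.98 and 7.10 in the CD69-activated arrays. The CD69-/- arrays were above all others. Klrg1 rose 1.35-fold (log2 difference 0.44 ± 0.081 SE, adjusted p = 0.0034), and after activation it was at -0.08 (95% interval -0.26 to 0.10). Klrg2 was at 0.00 (95% interval -0.12 to 0.12) and 0.07 (-0.05 to 0.19).

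**Figure D3:**
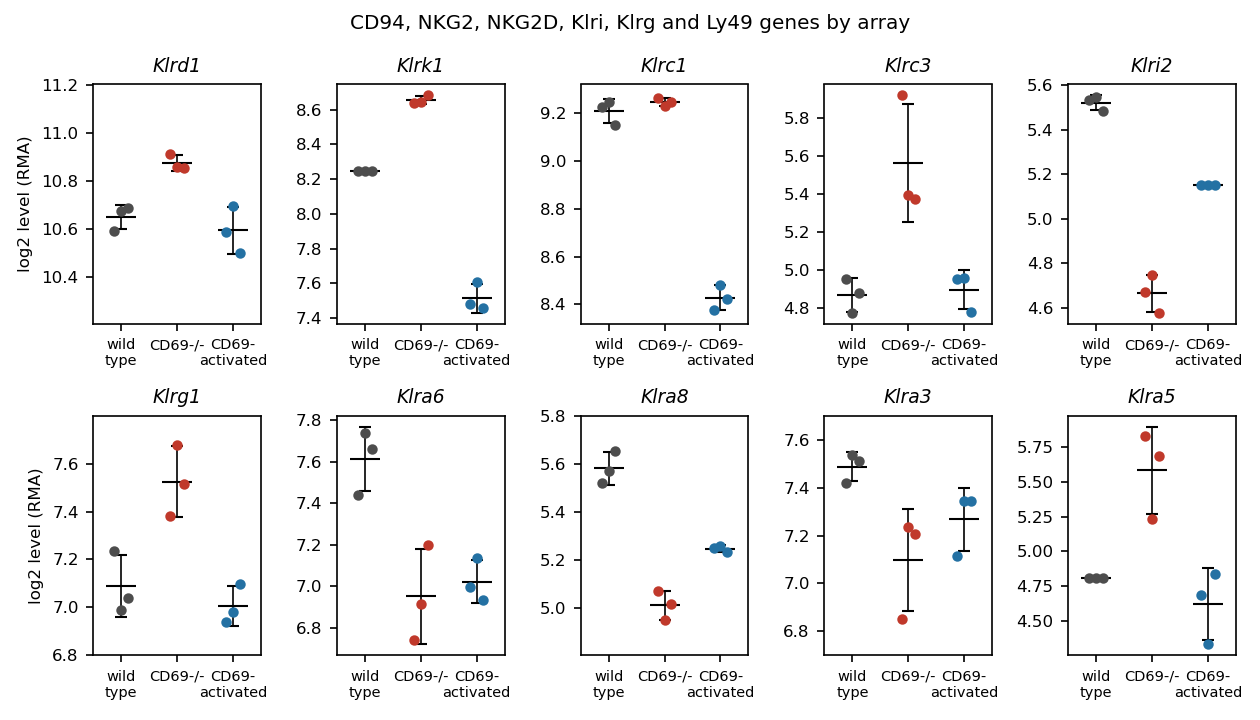
Log2 RMA levels of 10 CD94, NKG2, NKG2D, Klri, Klrg and Ly49 genes in each array, with the mean and SD (n = 3 arrays per group) as a bar and whiskers. Each panel has its own vertical range of at least 1 log2 unit. Klrd1, Klrk1, Klrc3, Klrg1 and Klra5 are highest in CD69-/-, Klrc1 and Klrk1 are lowest in CD69-activated arrays, and Klri2, Klra6, Klra8 and Klra3 are highest in wild type.

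Along the chromosome, called and uncalled genes were interleaved. In CD69-/- cells every gene called on the NKR-P1 and dectin-1 side of the complex fell, from Klrb1a to Clec7a. The CD94 and NKG2 segment held the rises of Klrd1, Klrk1 and Klrc3. In the adjoining Klri, Klrh and Ly49 segment Klri2, Klra6, Klra8 and Klra3 fell and Klrh1 and Klra5 rose. The 3 measured genes inside the block that are neither lectin genes nor Cd69 are Tmem52b, Gabarapl1 and Mir680-1. Their differences in CD69-/- were -0.01, 0.14 and -0.06, and none was called by limma, with 1 at an unadjusted p under 0.05. After activation Gabarapl1, a gene of autophagosome formation, fell by 0.28 (adjusted p = 0.00249).

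**Figure D4:**
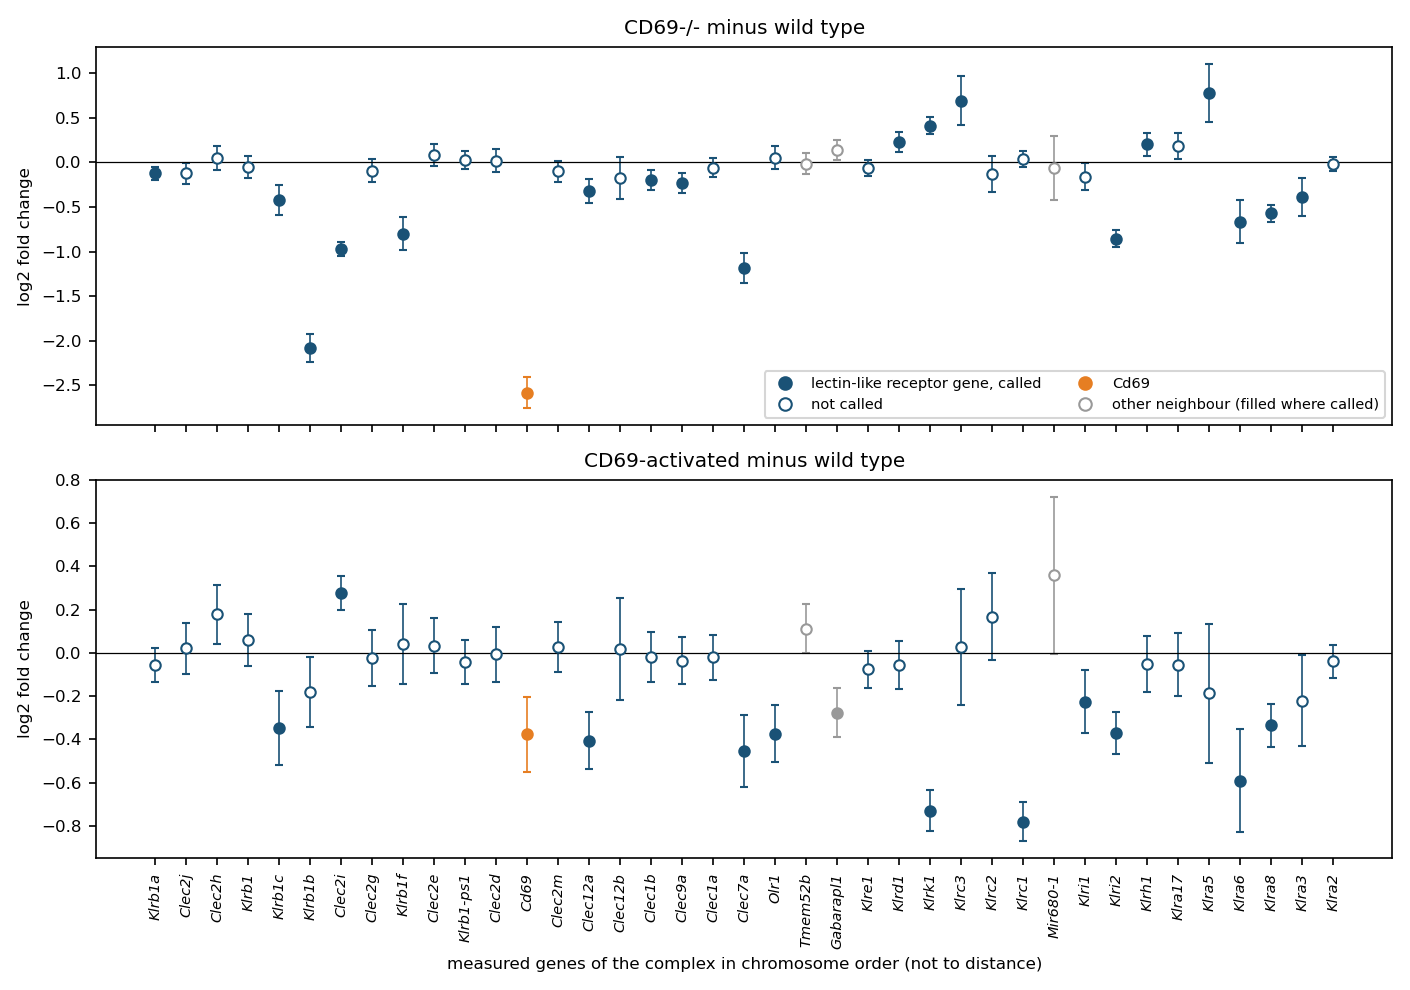
Log2 fold changes against wild type with 95% intervals (n = 3 arrays per group) for the 39 measured genes of the block in chromosome order, with equal spacing that does not show distance. Filled points were called, Cd69 is orange and other neighbours are grey. The vertical ranges differ between the panels. Among the lectin-like receptor genes other than Cd69, the lowest is Klrb1b at -2.08 in CD69-/- and Klrc1 at -0.78 after activation.

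The activated and CD69-/- groups were also compared directly, and 9 of the 38 genes were higher and 9 lower in CD69-activated than in CD69-/- cells. Over all genes 42.6% were called, 21.6% higher and 21.0% lower, so the share among the 38 is near the background. With arrays centred on their medians the shares were 16.7% higher and 23.9% lower. A change of at least 1.5-fold was called for 8 of the 38 and for 4.02% of all genes. The largest differences were those of Klrb1b (1.90 ± 0.073 SE, adjusted p = 1.65e-08), Clec2i (1.25, adjusted p = 1.99e-09) and Klrk1 (-1.14, adjusted p = 1.50e-08). All 5 CD94-NKG2 and NKG2D genes differed, with Klrc1 at -0.82, Klrc3 at -0.67 and Klrd1 at -0.28. Klrc2 was at 0.30 (adjusted p = 0.0209), which was lost without CD69-/- replicate 2 (0.21, 0.0859) or CD69-activated replicate 1 (0.30, 0.0578) or 2 (0.22, 0.0790), after cyclic loess (0.25, 0.0557) and with the 6 arrays of the comparison alone (0.30, 0.0502). Klra6, Clec12a and Klrb1c, lower than wild type in both groups, were at 0.07 (95% interval -0.17 to 0.31), -0.08 (-0.22 to 0.05) and 0.07 (-0.10 to 0.24).

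Signalling partners of these receptors were called in both directions. Of 15 adaptor and signalling genes 5 rose and 7 fell in CD69-/-, and 2 rose and 3 fell after activation. The share called was 80% in CD69-/-, where 15.1% of all genes were called. After activation it was 33.3%, nearer to the 23.8% of all genes. The DAP12 gene Tyrobp was at -0.54 in CD69-/- (adjusted p = 5.33e-05) and Fcer1g at -0.49 (adjusted p = 1.04e-05). Syk, a kinase that acts after these adaptors, was at -0.71 (adjusted p = 1.60e-06). The DAP10 gene Hcst rose by 0.38 (adjusted p = 0.0209) and the T cell kinase gene Zap70 by 0.46 (adjusted p = 4.46e-05). After activation Zap70 was at -0.22 (adjusted p = 0.00482) and Lcp2, which encodes the scaffold SLP-76, at -0.31 (adjusted p = 0.000227). Tyrobp (-0.10) and Hcst (-0.19) did not pass in that comparison. In CD69-/- 10 of 10 T cell genes rose, Cd4 by 0.37, beside the rise of Cd8a by 0.61 given above, and 7 of 7 B cell markers fell. Of those T cell genes Cd3d, Cd3e, Cd3g, Cd5, Cd28, Thy1 and Lat are shared by CD4 and CD8 T cells. The part of those cells in the adaptor values was not tested.

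Ligand genes were measured only in part, with 6 of 10 listed for class I, 2 of 9 for NKG2D and 3 of 3 cadherins. Of the 6 class I pathway genes, H2-M3 fell by 0.15 in CD69-/- (adjusted p = 0.0375) and 5 were not called. That is 16.7%, near the 15.1% of all genes called in CD69-/-. After activation none of the 6 was called by limma, with 1 at an unadjusted p under 0.05. B2m, the class I light chain gene, was at -0.05 and -0.01. H60b, an NKG2D ligand gene, was at 0.30 in CD69-/- (adjusted p = 0.0555) and rose by 0.44 after activation (adjusted p = 0.00598). Raet1d, the other NKG2D ligand gene measured, was at -0.11 (adjusted p = 0.498) and -0.15 (adjusted p = 0.286). Cdh1, which encodes the KLRG1 ligand E-cadherin, fell by 0.17 (adjusted p = 0.0126) and 0.12 (adjusted p = 0.0413).

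**Figure D5:**
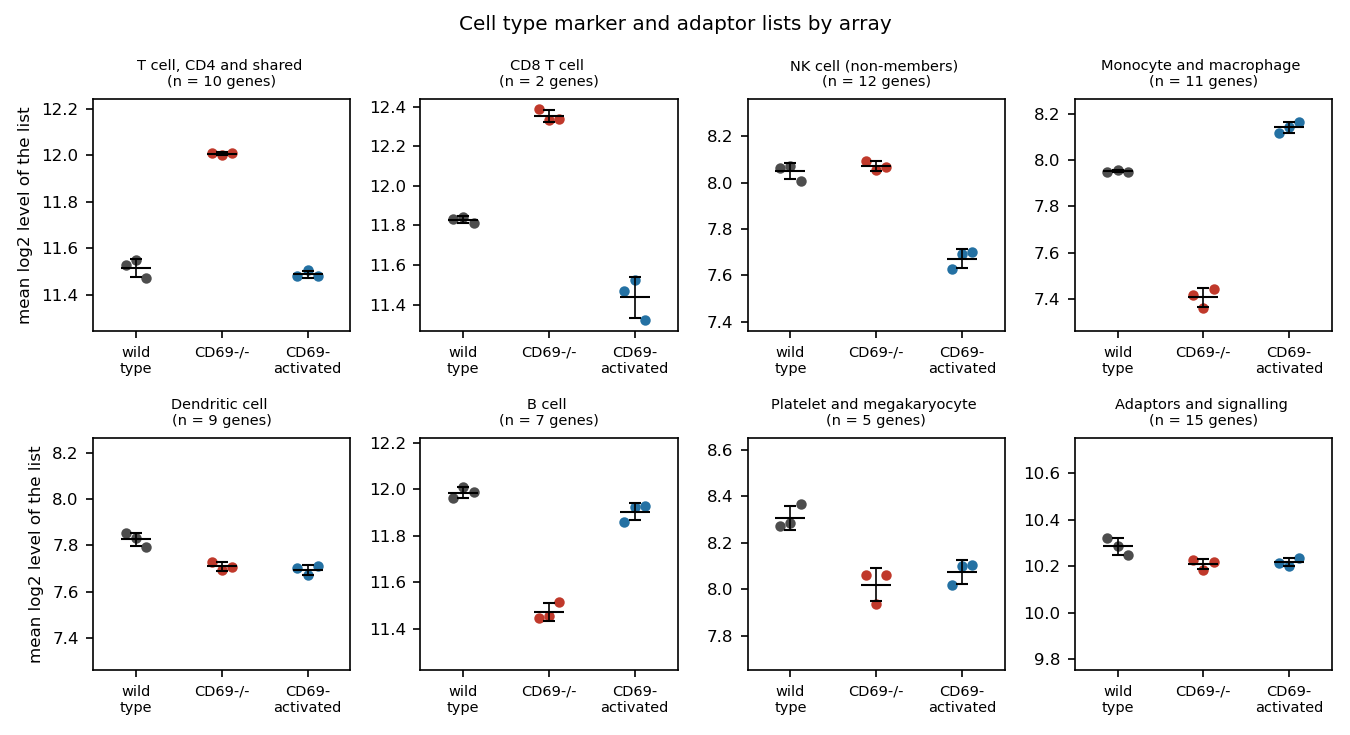
Mean log2 level of 8 gene lists in each array, with the group mean and SD (n = 3 arrays) as a bar and whiskers. The T cell panel holds Cd4 and other T cell genes, most of which CD4 and CD8 T cells share. Each panel has its own vertical range of at least 1 log2 unit. Monocyte and macrophage markers lie at 7.36 to 7.44 in CD69-/- and at 8.12 to 8.16 in CD69-activated arrays, and natural killer markers lie lowest in CD69-activated arrays, at 7.63 to 7.70.

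Of the 38 genes, 16 were called in neither comparison with wild type. For the genes not called, differences lay between -0.18 and 0.19 in CD69-/- and between -0.22 and 0.18 after activation. Their 95% intervals reached from -0.41 to 0.33 and from -0.51 to 0.37. The dimmest 25% of all genes, with a mean level under 6.29, held 19 of the 38, among them Klri2, Klra8, Klra5, Klrc3, Klrb1c, Clec9a and Clec1b. Probe sets so dim may carry little signal of their gene, and the values hold no detection call.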

How the data were processed

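RNA of 9 samples was hybridised to 1-colour Affymetrix mouse gene arrays. The authors deposited log2 expression values. The submitters' processing notes name RMA, oligo and R 2.12.1, with settings not given in the sources used here. RMA compresses large changes, and precision is limited by there being 3 arrays a group. Of 35556 probe sets 21789 had 1 gene symbol in the platform annotation, and the brightest by the mean of all arrays stood for each of 19938 genes.

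The model was limma 3.58.1 (R 4.3.3), run on the deposited values with no further scaling: lmFit with a mean for each of the 3 groups, eBayes without trend, two-sided p-values and Benjamini-Hochberg adjustment over all genes. The procedure was tested on simulated data. Members, lists, naming rule and tests were chosen with earlier results of these data known. All 38 genes are accounted for, and those called against wild type are given by array. Partner, marker and neighbour genes are given by list counts, without the gamma-delta T cell list and without T and B cell counts after activation. Gene order, RefSeq names and promoters came from the GRCm38.p6 tables, and all 38 symbols matched. Figures used matplotlib 3.10.9.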

Additional observations from a re-analysis of the deposited data

How the results depend on the processing

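The settings tried were cyclic loess, centring arrays on their medians, dropping the dimmest 25% of genes, averaging probe sets, testing every probe set, a fit to the 6 arrays of a comparison alone, a robust prior with an intensity trend, a replicate block, a 1.5-fold minimum, leaving out X and Y chromosome genes and leaving out each array. None reversed a called gene's direction. Without the dimmest genes, which leaves 19 of the 38 genes, 3 were higher and 7 lower in CD69-/- and 2 higher and 6 lower after activation, and 6 were higher and 5 lower in CD69-activated than in CD69-/- cells. With a 1.5-fold minimum the counts higher and lower were 2 and 6 in CD69-/-, 0 and 3 after activation and 4 and 4 between CD69-activated and CD69-/- cells; limma also had 0 higher after activation at that fold with an unadjusted p under 0.05. Over all genes that minimum left 81 higher and 149 lower, 56 and 260, and 275 and 526. Leaving out each array gave 4 to 7 higher and 10 to 14 lower in CD69-/-, 1 to 2 higher and 9 to 11 lower after activation, and 7 to 11 higher and 9 to 10 lower between those groups. Calls over all genes higher in CD69-/- numbered 1092 without wild-type replicate 3 and 2555 with median centring, against 1667. Replicate numbers did not pair the arrays: deviations of same-numbered arrays correlated at -0.24 to 0.14 and of others at -0.14 to 0.20. With the replicate block the counts were 5 higher and 12 lower in CD69-/-, 1 and 11 after activation and 10 and 9 between them: Klrb1a (adjusted p = 0.0736) and Klrh1 (0.0623) were lost in CD69-/- and Klra3 (0.0191) was gained after activation. Apart from the fold minimum and the loss of dim genes, 14 of 19 calls in CD69-/-, 10 of 11 after activation and 16 of 18 between the groups were kept in every other setting that tested them. The signal over background of dim probe sets is not given by these values.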

Other observations

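The measured genes on either side of the natural killer gene complex were described as well, 15 before Klrb1a and 15 after Klra2 in RefSeq gene order, a number chosen after the values of the lectin genes were seen. Before the complex 4 of 15 rose in CD69-/- cells and 11 were not called, with differences between -0.13 and 0.31. The rises are 26.7% of these genes, where 8.36% of all genes rose. After it, limma called none of 15 in CD69-/- and 1 had an unadjusted p under 0.05, with differences between -0.11 and 0.03; 11 of these 15 lay in the dimmest 25% of genes. After CD69 activation 2 rose and 3 fell before the complex and 1 fell after it. That is 33.3% and 6.67% called, against 23.8% of all genes.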
